A study of Mus musculus with 15 samples.

Results

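The phase II conjugation enzymes described here were the genes on the array whose platform symbol begins with Gsta, Gstm, Gstp, Gstt, Gsto, Gstk, Gstz, Mgst, Ugt1, Ugt2, Ugt3 or Sult and that had at least 1 probe set annotated to that symbol alone. A gene with several such probe sets is represented by the brightest of them, by its mean signal across the 15 arrays. This gave 46 genes of 18193 on the array, namely 20 soluble glutathione transferases, 3 microsomal glutathione transferases, 10 UDP-glucuronosyltransferases and related UDP-glycosyltransferases, and 13 sulfotransferases. Messenger RNA was measured in primary hepatocytes of C57BL/6 mice on 15 Affymetrix mouse genome arrays, 3 for each of 5 groups, and the cells of every group had been infected with an adenovirus. In the overexpression arm the virus carried EGFP as the control, wild-type IRE1a, or IRE1a with an alanine in place of a serine (S724A IRE1a), and infection lasted 48 hours without further treatment. In the hairpin arm it delivered either a control hairpin or one directed at IRE1a (the second of a numbered set), infection lasted 72 hours, and both groups then received glucagon for 4 hours. No group of the hairpin arm went without glucagon. The age and sex of the mice are not given in the sources used here, and nothing there ties an array to an animal, so the p-values measure the spread between 3 experiments that the series describes as independent.

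Phase II enzymes attach a water-soluble group to lipophilic compounds so that the product can leave the cell in bile or urine. Glutathione transferases add glutathione to electrophiles, UDP-glucuronosyltransferases add glucuronic acid from UDP-glucuronic acid in the endoplasmic reticulum, and sulfotransferases add sulfate from the donor PAPS in the cytosol. The liver is the main site of all these reactions, and IRE1a, encoded by Ern1, is the endoplasmic reticulum kinase and endoribonuclease that splices Xbp1 messenger RNA under protein-folding stress.

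Ern1 served as the check of the viruses. Its signal was 8.98 ± 0.11 (SD, n = 3) with the control hairpin and 7.52 ± 0.08 with the IRE1a hairpin, a fall of 1.47 on the log2 scale (adjusted p = 0.00293, limma), which was 0.0977 without the replicate 2 arrays of that arm; the mean of all Ern1 probe sets fell by 0.56. In the overexpression arm Ern1 read 8.97 ± 0.39 with EGFP, 9.09 ± 0.20 with wild-type IRE1a and 9.42 ± 0.34 with S724A IRE1a, with overlapping arrays, and passed in neither comparison without a block. It rose by 0.46 with S724A IRE1a in the fit with the replicate number as a block (adjusted p = 0.0215, limma; 0.159 without it), and by 0.67 without EGFP replicate 1 (adjusted p = 0.0362, no block). Ern1 thus did not show the overexpression of wild-type IRE1a, and whether its probe set detects the viral transcript was not tested. Xbp1 rose by 0.63 with wild-type IRE1a and by 0.52 with S724A IRE1a (adjusted p = 0.00309 and 0.0137, limma; the latter was 0.0737 without EGFP replicate 2 and 0.0722 without S724A replicate 2). Albumin read between 14.2 and 14.5 as a group mean, and the summed hepatocyte markers lay between 16.2 and 16.6 on the log2 scale in every array. Markers of other liver cells were mixed. Of 5 bile duct markers on the array Krt7 and Cftr had means below 4 in every group, while Epcam, Sox9 and Krt19 did not, Epcam being the brightest at up to 7.12. Of 7 stellate and fibroblast markers Lrat alone was below 4 in every group, and the brightest, Acta2, reached 7.33. Of 5 lymphocyte and neutrophil markers Ptprc and S100a8 were below 4 in every group and Cd3e and Nkg7 in none. All 7 macrophage and all 6 endothelial markers had means above 4 in every group; Cd68 reached 12.1, and the other 6 macrophage markers lay between 4.06 and 6.91. In these bulk samples fewer cells of a type and less RNA per cell cannot be told apart.

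All values below are log2 signals of a probe set, so a difference of 1 is a 2-fold change, and a probe set is compared only with itself across arrays. A gene was tested when its signal was 4 or more in at least 3 arrays; 43 of the 46 enzymes passed, and 41 were at 4 or more in all 15 arrays. Those not tested were the sulfotransferases Sult2a2, Sult3a1 and Sult6b1, each below 4 in every array. Differences are given with limma's standard error, and a gene is said to have risen or fallen when its p-value, adjusted over all 16294 genes tested by Benjamini and Hochberg's method, was under 0.05. Arrays of the same replicate number deviated together within an arm, so the value from a fit in which the replicate number is a block in its own arm (called the blocked fit) is also given where it changes a call. Probe sets Gstm3 and Ugt2b34 carry the platform's suffix for probes shared by several transcripts and Gstm1 and Sult6b1 the suffix for possible cross-hybridisation; the Gstm and Ugt2b genes are close copies of each other, so the share of a signal that belongs to 1 copy is uncertain throughout those families.

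Among the soluble glutathione transferases, Gstp1, the pi-class enzyme, had the lowest within-group SD of the 43 enzymes tested, at 0.0562, and lay between 13.57 and 13.91 over the 15 arrays. Its relative Gstp3 lay between 9.50 and 10.74. The alpha-class enzymes, which also reduce lipid hydroperoxides, read 10.73 to 12.60 for Gsta3, 8.0 to 9.59 for Gsta2 and 8.39 to 9.16 for Gsta4. The mu class spread more widely between arrays: Gstm3 ranged from 8.59 to 13.41 and Gstm2 from 7.56 to 10.39, with within-group SDs of 1.13 and 0.765, whereas Gstm5 stayed between 10.03 and 10.49. The theta-class signals of Gstt1, Gstt2 and Gstt3 lay between 5.94 and 9.85, and that of Gstt4 between 4.25 and 4.68. Gsto1 of the omega class lay between 10.66 and 11.30, and Gsto2 between 3.84 and 4.62, across the limit for testing. Gstk1, the kappa-class enzyme of mitochondria, read 7.84 to 8.73, and Gstz1, the zeta-class enzyme that isomerises maleylacetoacetate in tyrosine breakdown, read 8.58 to 9.69.

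The microsomal enzyme Mgst1 lay between 13.04 and 13.33 in the 15 arrays, with a within-group SD of 0.0860. Mgst3 read 7.53 to 8.73 and Mgst2 5.09 to 5.95. Of the sulfotransferases, Sult1d1 read 11.10 to 12.91, Sult1a1, the phenol sulfotransferase, 8.46 to 11.05, and Sult1e1, the estrogen sulfotransferase, 7.53 to 10.92 with a within-group SD of 1.04. Sult2a8, a member of the hydroxysteroid and bile acid family, ranged from 5.15 to 8.66. Sult4a1, Sult1c1, Sult1c2 and Sult2b1 stayed below 6 in all arrays. The median within-group SD over the 43 enzymes was 0.310, against 0.171 over all genes tested. The plot of group means by family shows these levels together with their spread.

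**Figure D1:**
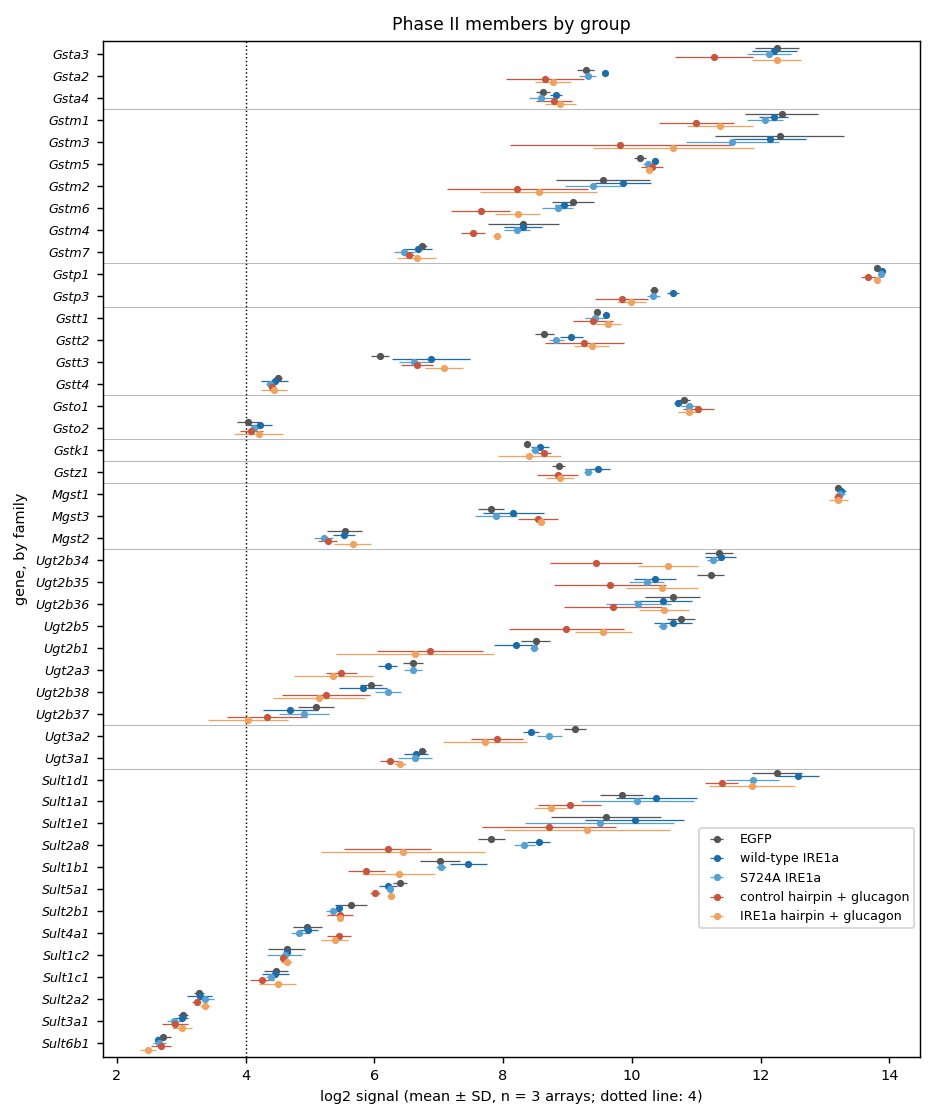
Mean log2 signal of each of the 46 phase II genes in the 5 groups (points, one colour per group; bars are the SD of 3 arrays), ordered by family from the glutathione transferases at the top to the sulfotransferases at the bottom; the dotted line marks a signal of 4. The 3 sulfotransferases at the foot of the plot lie left of that line, and in most glucuronosyltransferase rows the groups of the hairpin arm lie left of the EGFP group.

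Among the glucuronosyltransferases, Ugt2b34 ranged from 8.87 to 11.61 over the 15 arrays, Ugt2b35 from 8.72 to 11.47, Ugt2b36 from 9.14 to 11.03 and Ugt2b5 from 8.13 to 10.97. Ugt2b1 ranged from 5.37 to 8.70, Ugt2a3 from 4.79 to 6.77, Ugt2b38 from 4.39 to 6.44 and Ugt2b37 from 3.33 to 5.41, and the family members Ugt3a2 and Ugt3a1 from 6.98 to 9.24 and from 6.11 to 6.86. No probe set carried a single Ugt1 symbol. The Ugt2b genes stand in a row on chromosome 5, and RefSeq promoter windows (build GRCm38.p6, 250 bases before to 50 after the annotated start) were found for 41 of the 46 enzymes. A search of both strands for GTTANNNNNTAAC, the palindromic form bound by the hepatocyte factor HNF1, matched 8 of these 41 (19.5%, with a gene counted if any of its windows matches), beside 0.389% of all 27025 genes in the table counted alike. Per window these were 8 of 53 (15.1%) and 0.332% of all 32851 windows. The motif was chosen after the promoters had been read. All 8 genes were glycosyltransferases, among them 7 of the 8 Ugt2 members with a promoter; the exception was Ugt2a3. The stretch around the match is shown for 6 of them because the genes lie in 1 row and, as given below, their second arrays of the hairpin arm deviated in different directions. Ugt2b1, to which both reasons also apply, and Ugt3a1 matched too and are not shown. The window of Ugt2b1 was 38.4% to 54.8% identical to those shown. The match is in capitals, with 30 bases on each side.
Ugt2b34: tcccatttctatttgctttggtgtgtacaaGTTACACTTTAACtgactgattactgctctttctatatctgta
Ugt2b35: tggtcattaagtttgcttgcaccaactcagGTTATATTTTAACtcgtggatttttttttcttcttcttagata
Ugt2b36: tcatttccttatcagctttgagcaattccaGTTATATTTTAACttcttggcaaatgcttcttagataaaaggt
Ugt2b5: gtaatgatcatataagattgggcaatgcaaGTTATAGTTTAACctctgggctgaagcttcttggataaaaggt
Ugt2b37: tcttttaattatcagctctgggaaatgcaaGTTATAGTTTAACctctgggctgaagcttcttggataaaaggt
Ugt2b38: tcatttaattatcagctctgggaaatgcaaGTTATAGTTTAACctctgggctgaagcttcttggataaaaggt
These windows lie at chr5:86906968-86907040 (minus strand) for Ugt2b34, chr5:87000760-87000832 (plus strand) for Ugt2b35, chr5:87092577-87092649 (minus) for Ugt2b36, chr5:87140359-87140431 (minus) for Ugt2b5, chr5:87254824-87254896 (minus) for Ugt2b37 and chr5:87424225-87424297 (minus) for Ugt2b38. The match begins 73, 70, 64, 61, 78 and 64 bases before the start site, in that order. From the first base of the match to the end of the window, Ugt2b5, Ugt2b37 and Ugt2b38 were identical in all 43 positions. Ugt2b37 and Ugt2b38 differed at 1 of 73 positions over the whole window, and Ugt2b34 and Ugt2b35 differed at 36. Between Ugt2b36, Ugt2b5, Ugt2b37 and Ugt2b38 the identity was 67.1% to 98.6%, and in the pairs with Ugt2b34 or Ugt2b35 it was 42.5% to 54.8%. A match describes letters only, and binding was not measured here.

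With wild-type IRE1a, 1 of the 43 enzymes changed: Gstz1 rose by 0.61 ± 0.15, or 1.52-fold (adjusted p = 0.0259, limma). The glutathione transferases and sulfotransferases were otherwise spread around their EGFP levels, and 9 of the 10 glycosyltransferases had negative differences. Over all genes tested, 7.67% were called in this comparison, against 1 of 43 (2.33%) here. The median difference over the enzymes was 0.01, beside 0.00 over all genes. An unadjusted p under 0.05 was found for 5 of the 43, beside 21.4% of all genes. The EGFP and wild-type arrays did not overlap for 14 enzymes (32.6%), beside 26.7% of all genes. For 16 enzymes (37.2%, beside 24.9% of all genes) the wild-type array was above the EGFP array of its number in all 3 replicates. For 8 (18.6%, beside 19.7%) it was below in all 3.

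Gstz1 read 8.89, 8.74 and 8.95 in the EGFP arrays of replicates 1, 2 and 3 and 9.34, 9.37 and 9.69 with wild-type IRE1a. With S724A IRE1a it read 9.27, 9.29 and 9.38. All 6 arrays of the IRE1a groups were above the 3 EGFP arrays. In the hairpin arm Gstz1 read 9.19, 8.77 and 8.58 with the control hairpin and 9.04, 8.64 and 8.97 with the IRE1a hairpin, groups that overlap. The wild-type call was lost without EGFP replicate 1, 2 or 3 (adjusted p = 0.0570, 0.114 and 0.0515) and without wild-type replicate 3 (adjusted p = 0.118).

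In the blocked fit 6 of the 43 enzymes passed with wild-type IRE1a, beside 15.6% of all genes; 4 rose (9.30%, beside 10.6% of all genes) and 2 fell (4.65%, beside 4.99%). Gstz1 kept its call (adjusted p = 0.00458, blocked limma fit). Gstt3, a theta-class transferase, rose by 0.79 (adjusted p = 0.00506 in the blocked fit, 0.0675 without the block). It read 6.09, 5.94 and 6.23 with EGFP and 6.46, 6.60 and 7.58 with wild-type IRE1a, without overlap, and the third wild-type array stood highest; without wild-type replicate 1 the difference passed also without the block (1.00, adjusted p = 0.0321). Its neighbour in class Gstt2 rose by 0.42 (adjusted p = 0.0457 blocked, 0.324 without), from 8.58, 8.53 and 8.82 to 8.97, 8.95 and 9.26. Sult2a8 rose by 0.73 (adjusted p = 0.0188 blocked, 0.394 without), from 7.98, 7.89 and 7.59 to 8.64, 8.35 and 8.66. For both genes every wild-type array was above every EGFP array.

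The falls in the blocked fit were those of 2 glycosyltransferases. Ugt2b35 fell by 0.87 (adjusted p = 0.00329 blocked, 0.166 without), from 11.10, 11.11 and 11.47 with EGFP to 10.64, 10.001 and 10.43 with wild-type IRE1a. Ugt3a2, of the family that uses sugar donors other than glucuronic acid, fell by 0.69 (adjusted p = 0.00669 blocked, 0.132 without), from 9.19, 8.92 and 9.24 to 8.52, 8.29 and 8.48. In neither gene did the groups overlap. For the remaining Ugt2b genes the differences between wild-type IRE1a and EGFP lay between -0.40 and 0.03, and none passed in either fit.

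With S724A IRE1a, 0 of the 43 enzymes passed limma's test without a block, beside 6.12% of all genes. Of the 43, 3 had an unadjusted p under 0.05, beside 24.01% of all genes. The smallest adjusted p in limma's test was 0.0972, for Gstz1. The median difference was -0.08, beside -0.01 over all genes, and 10 enzymes (23.3%) had arrays that did not overlap, beside 33.4% of all genes. For 7 enzymes (16.3%, beside 27.3% of all genes) the S724A array was above the EGFP array of its number in all 3 replicates. For 11 (25.6%, beside 27.5%) it was below in all 3. In the blocked fit 4 enzymes passed (9.30%, beside 14.4% of all genes), of which 2 rose (4.65%, beside 8.89%) and 2 fell (4.65%, beside 5.52%). Gstz1 rose by 0.45 (adjusted p = 0.0261) and Gstt3 by 0.53 (adjusted p = 0.0430, both blocked limma), the latter to 6.45, 6.52 and 6.89. Both stood above all EGFP arrays. Ugt2b35 fell by 1.00 (adjusted p = 0.00190 blocked, 0.108 without), to 10.54, 10.05 and 10.10, below every EGFP array. Ugt2b36 fell by 0.53 (adjusted p = 0.0369 blocked, 0.393 without), from 10.17, 10.69 and 11.03 to 9.52, 10.42 and 10.37; its arrays overlapped between the groups, and each was below the EGFP array of its number. The wild-type and S724A comparisons share the 3 EGFP arrays, so their values are given side by side and not as 2 independent results.

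The direct comparison of wild-type with S724A IRE1a called 0 of the 43 enzymes and 0% of all genes in limma's test. An unadjusted p under 0.05 was found for 1 of the 43 enzymes and for 997 genes (6.12% of all genes). The blocked fit called 0 enzymes and 2 genes (0.0123%). The difference was positive for 36 enzymes and negative for 7, with a median of 0.13 beside 0.03 over all genes. For 17 enzymes (39.5%, beside 22.6% of all genes) the wild-type array was above the S724A array of its number in all 3 replicates. For 5 (11.6%, beside 14.4%) it was below in all 3. All 7 mu-class and all 4 theta-class transferases had positive differences, between 0.06 and 0.58. The greatest difference was that of Sult1d1, at 0.71 ± 0.30 (adjusted p = 0.803), which read 12.58, 12.27 and 12.91 with wild-type and 11.61, 11.67 and 12.35 with S724A IRE1a. For Gstz1 the difference was 0.15, with a 95% interval from -0.18 to 0.49, and for Ugt2b35 it was 0.13, from -0.63 to 0.89. A difference between the 2 forms was not detectable for these genes with 3 arrays a group, and the intervals leave room for one of up to 0.49 and 0.89.

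**Figure D2:**
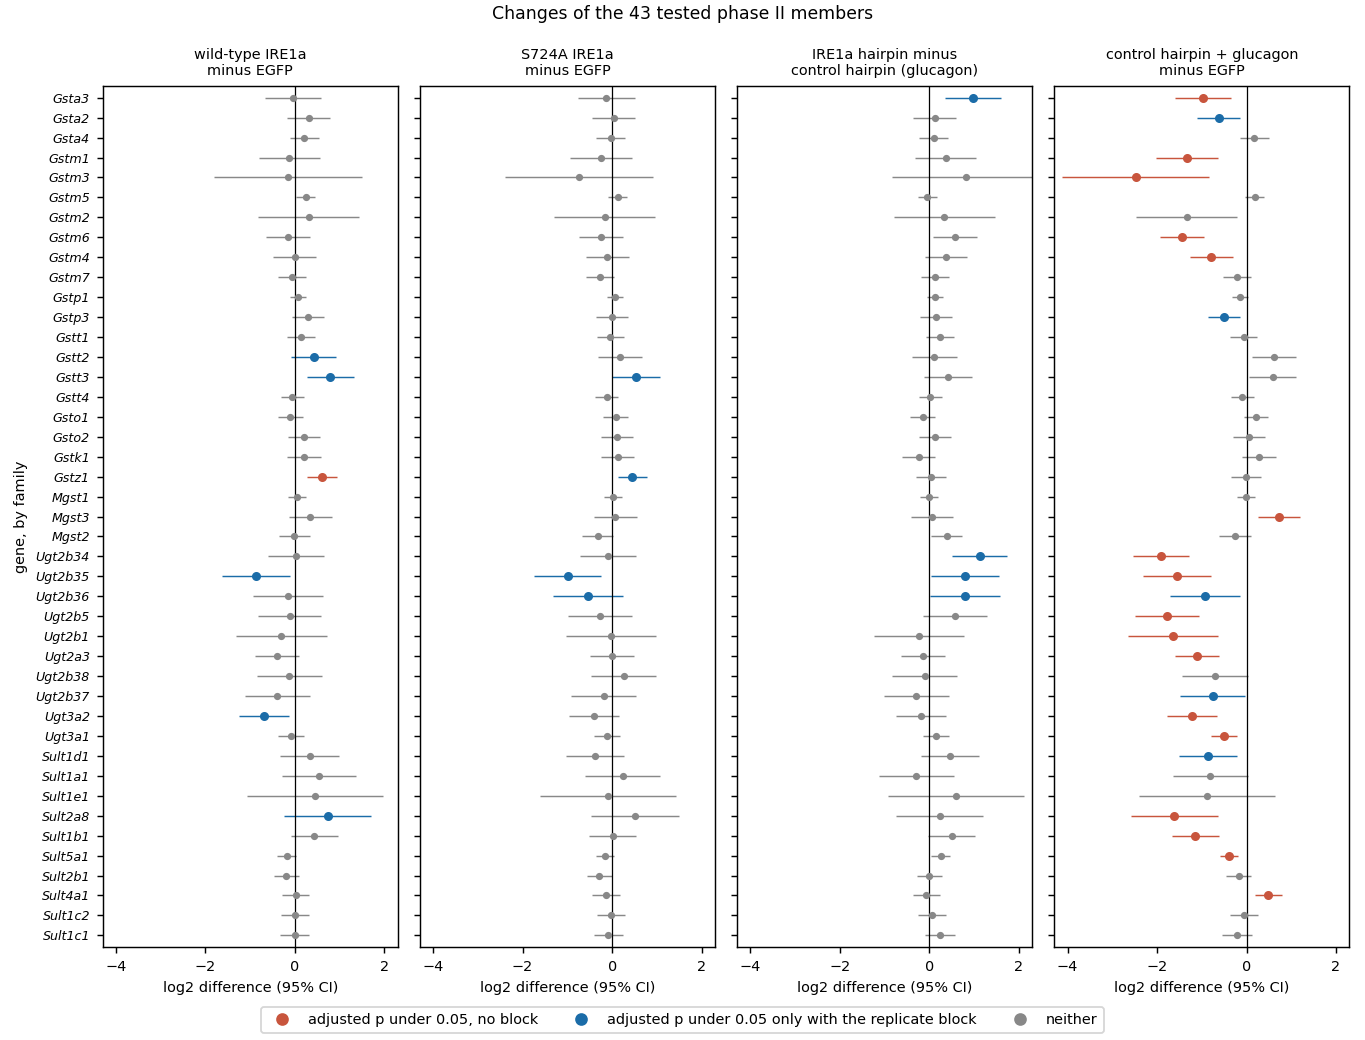
Log2 differences of the 43 tested enzymes, by family, in 4 comparisons (points; bars are 95% confidence intervals of the fit without a block). Red points passed an adjusted p of 0.05 without a block, blue points only when the replicate number was a block (inside an arm in the first 3 panels, over all arrays in the last): 1 red point in the wild-type panel, none in the S724A and hairpin panels and 17 in the panel across the arms, where most points lie left of 0.

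With the IRE1a hairpin under glucagon, 33 of the 43 enzymes had positive and 10 negative differences from the control hairpin, with a median of 0.13 beside 0.02 over all genes. None of the 43 passed limma's test without a block, beside 0.233% of all genes. An unadjusted p under 0.05 was reached by 7 of the 43, beside 7.73% of all genes. The smallest adjusted p in limma's test was 0.199, for Ugt2b34. The IRE1a hairpin array was above the control hairpin array of its number in all 3 replicates for 16 enzymes (37.2%, beside 18.4% of all genes) and below it in all 3 for 2 (4.65%, beside 17% of all genes). In the blocked fit 4 enzymes passed, all of them higher (9.30%, beside 0.534% of all genes): Ugt2b34, Gsta3, Ugt2b36 and Ugt2b35. Arrays of the 2 groups did not overlap for 2 enzymes (4.65%, beside 11.5% of all genes).

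Ugt2b34 read 8.87, 10.24 and 9.20 with the control hairpin and 10.18, 11.08 and 10.42 with the IRE1a hairpin. The second array was the highest of each group, so the groups overlap although each pair differed by 0.84 to 1.31. Its rise of 1.12, or 2.18-fold, had an adjusted p of 0.00192 in the blocked limma fit and 0.199 without the block. Its second probe set differed by 1.21 ± 0.28, with no overlap between the groups (adjusted p = 0.145 over all probe sets, no block). With both replicate 2 arrays of the arm left out, an alternative chosen after these values were known, Ugt2b34 rose by 1.27 (adjusted p = 0.0352, limma without a block), and by 1.53 (adjusted p = 0.0201) without control hairpin replicate 2 alone.

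Gsta3 read 10.73, 11.94 and 11.18 with the control hairpin and 11.83, 12.54 and 12.39 with the IRE1a hairpin, and rose by 0.97, or 1.96-fold (adjusted p = 0.00433 blocked, 0.358 without). The pairs differed by 1.10, 0.61 and 1.21, and only the second control array reached into the range of the IRE1a hairpin group. The second probe set of Gsta3 differed by 0.81 ± 0.33 (adjusted p = 0.566, no block). Ugt2b36 read 9.42, 10.57 and 9.14 and then 10.43, 10.91 and 10.16, a rise of 0.79 (adjusted p = 0.0305 blocked, 0.640 without). Ugt2b35 read 8.72, 10.43 and 9.85 and then 9.84, 10.88 and 10.70, a rise of 0.81 (adjusted p = 0.0355 blocked, 0.619 without). In these 2 genes, too, the IRE1a hairpin array was the higher in all 3 pairs, and the groups overlapped through the second control array and, for Ugt2b35, the third. Gstz1, Mgst1 and Gstp1 differed by 0.04, 0.00 and 0.13 in this comparison, and none of them passed in either fit.

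Gsta3 is 1 of 4 enzymes, with Gstm5, Gstm7 and Mgst1, whose promoter window holds the core of the antioxidant response element, TGACNNNGC, on either strand. That is 9.76% of the 41 enzymes with a promoter, beside 14% of all genes counted alike, or 7.55% of their 53 windows, beside 12.4% of all windows. The stretches of Gsta3 and Mgst1 are shown because the first belongs to an enzyme that differed in the hairpin arm and the second to one with almost no spread; capitals mark the core, which lies on the opposite strand in Mgst1.
Gsta3: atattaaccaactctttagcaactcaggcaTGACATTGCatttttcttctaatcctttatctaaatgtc
Mgst1: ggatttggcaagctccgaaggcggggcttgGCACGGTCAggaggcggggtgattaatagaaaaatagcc
They lie at chr1:21240434-21240502 and chr6:138140441-138140509 in GRCm38.p6, both on the plus strand, with the core beginning 121 and 56 bases before the start site. The core of the unfolded-protein-response element, TGACGTG, which XBP1 can bind, was found in 1 of the 41 (Sult2b1) and in 2.22% of all genes. The cyclic AMP response element, TGACGTCA, was found in 0 of the 41 and in 2.03% of all genes. These counts describe the windows only.

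**Figure D3:**
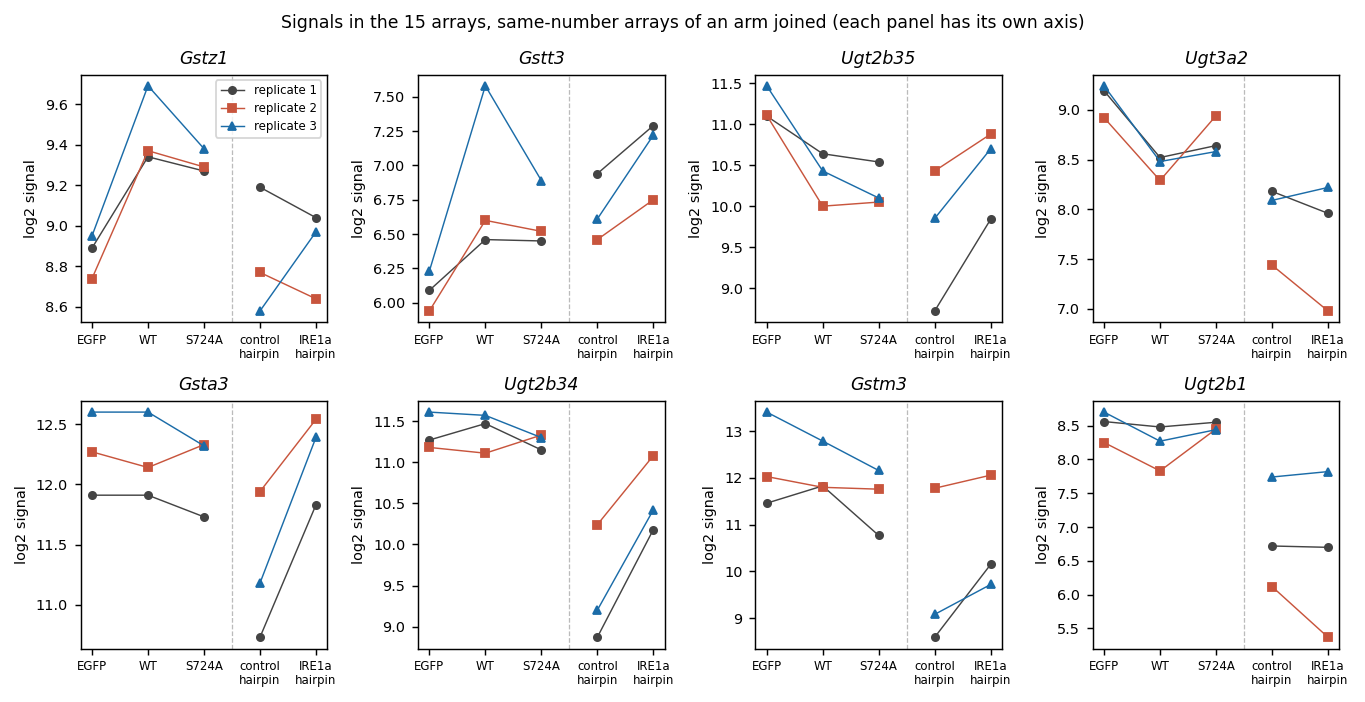
Log2 signal of 8 enzymes in each of the 15 arrays; lines join arrays of the same replicate number within an arm, the dashed line separates the arms, and each panel has its own axis. Gstz1 and Gstt3 lie above their EGFP arrays and Ugt2b35 below them in all IRE1a arrays, Ugt2b34 and Gsta3 rise in all 3 pairs of the hairpin arm, and for Gstm3 the replicate 2 arrays of that arm lie near 12 while the others lie between 8.59 and 10.15.

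The replicate 2 arrays of the hairpin arm stood apart from replicates 1 and 3 in both groups for many of these enzymes, which was noticed in the data and is given without a test. In 14 of the 43 enzymes (32.6%, beside 2.31% of all genes) the second array differed from the mean of the other two by more than 0.5 in the same direction in both groups. It was higher for 8, the mu-class transferases Gstm1, Gstm2, Gstm3 and Gstm6 and the glucuronosyltransferases Ugt2b34, Ugt2b35, Ugt2b36 and Ugt2b5. It was lower for 6, namely Ugt2b1, Ugt2b37, Ugt2b38, Ugt3a2, Sult1e1 and Sult2a8. Genes of the Ugt2b row thus lay on opposite sides, Ugt2b5 with differences of 1.40 and 0.64 in the control and IRE1a hairpin groups and Ugt2b38 with -1.05 and -1.13. Gstm3 read 8.59, 11.78 and 9.08 with the control hairpin and 10.15, 12.06 and 9.72 with the IRE1a hairpin, so that the second array exceeded the others by 2.95 and 2.13. Sult1e1 went the other way, with 9.14, 7.53 and 9.46 and then 10.21, 7.82 and 9.88. In both genes the second arrays of both groups lay outside the range of the other 4 arrays of the arm. Beside these, the bile duct marker Krt19 read 7.16 and 6.98 in the second arrays and between 5.38 and 5.93 in the other 4 of the arm. The remaining bile duct markers did not follow it. Epcam read 6.70 and 6.95 in the second arrays and between 6.75 and 7.04 in the other 4. Sox9 read 6.21 and 5.66, beside 5.47 to 5.97. Krt7 read 3.55 and 3.73, beside 3.57 to 3.70, and Cftr 2.97 and 2.83, beside 2.91 to 2.95. Among the markers of other cells, the endothelial Stab2 read 6.38 and 6.62 in the second arrays, beside 5.28 to 5.69. Dcn (6.47 and 6.80, beside 6.21 to 6.38) and Apoc3 (13.08 in both, beside 12.78 to 12.92) were higher by less. Lyve1 (5.08 in both, beside 5.18 to 5.29) and Ttr (13.79 and 13.72, beside 13.85 to 14) were lower. The cause was not tested.

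**Figure D4:**
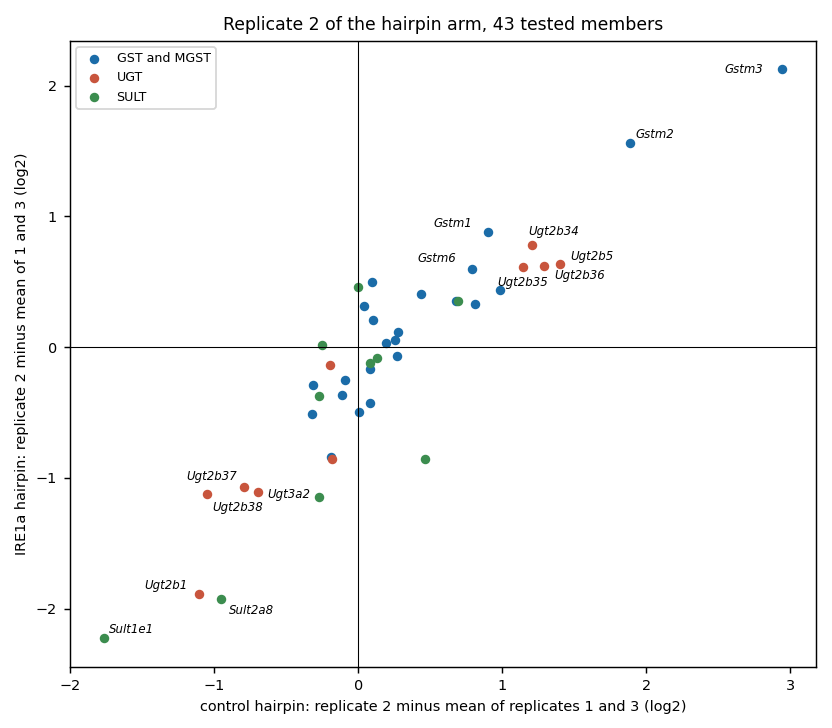
Replicate 2 minus the mean of replicates 1 and 3 in the control hairpin group (horizontal axis) and in the IRE1a hairpin group (vertical axis), both in log2 units, for the 43 tested enzymes coloured by family. The 8 enzymes higher by more than 0.5 in both groups lie at the upper right, with Gstm3 at 2.95 and 2.13, and the 6 lower ones at the lower left, with Sult1e1 at -1.77 and -2.22.

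Across the arms, 17 of the 43 enzymes differed between the control hairpin group with glucagon and the EGFP group (39.5%, beside 16.1% of all genes). Virus, length of infection and glucagon all differ between these groups and cannot be told apart. Of the 17, 15 were lower (34.9%, beside 6.74% of all genes) and 2 higher (4.65%, beside 9.34%), and the median difference over all 43 was -0.50, beside -0.05 over all genes. All genes named in this comparison were chosen after their values had been seen. The glycosyltransferases were lower without exception, with a median of -1.17, and 7 of 10 fell: Ugt2b34, Ugt2b5, Ugt2b1, Ugt2b35, Ugt3a2, Ugt2a3 and Ugt3a1. In the mu class 4 of 7 fell, with a median of -1.32, and in the alpha class Gsta3 alone. The theta, omega, kappa, zeta and pi classes had no call in either direction; of them Gstt2 passed without control hairpin replicate 3 (a difference of 0.94, adjusted p = 0.00388), and Gstt3 in a fit of only the 6 arrays compared (0.58, adjusted p = 0.0372).

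The greatest differences of the glucuronosyltransferases were those of Ugt2b34 and Ugt2b5. Ugt2b34 read 11.27, 11.18 and 11.61 with EGFP, so its 8.87, 10.24 and 9.20 with the control hairpin were 1.92 ± 0.29 lower in log2, a fall of 3.77-fold (adjusted p = 0.000902, limma). Ugt2b5 read 10.77, 10.55 and 10.97 with EGFP and 8.13, 9.92 and 8.90 with the control hairpin, a fall of 3.44-fold (adjusted p = 0.00323). No array of the control hairpin reached the EGFP range in either gene. Ugt2b1 fell 3.12-fold (adjusted p = 0.0298), from 8.56, 8.25 and 8.70 to 6.72, 6.12 and 7.74, Ugt2b35 fell 2.95-fold (adjusted p = 0.00931) and Ugt2a3 fell 2.17-fold (adjusted p = 0.00532), from 6.77, 6.59 and 6.46 to 5.33, 5.37 and 5.77. Ugt3a2 fell 2.32-fold (adjusted p = 0.00664), to 8.18, 7.44 and 8.09. The calls of Ugt2b34, Ugt2b35, Ugt2b5, Ugt2a3 and Ugt3a2 were kept in every alternative tried, while Ugt2b1 no longer passed with EGFP replicate 1, 2 or 3 left out (adjusted p between 0.0622 and 0.0966), with control hairpin replicate 1 or 2 left out (0.0932 and 0.12), or with trended and robust variances (0.0501). Ugt3a1 fell by 0.50 (adjusted p = 0.0237), which did not pass with EGFP replicate 2 or 3 (0.0805 and 0.0641) or control hairpin replicate 1 or 2 (0.0783 and 0.0866) left out. Ugt2b36, which differed by -0.92 and had no call, passed with a replicate block over all arrays (adjusted p = 0.0442) and, at -1.35, without control hairpin replicate 2 (adjusted p = 0.0203).

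In the mu class Gstm6 fell 2.71-fold (adjusted p = 0.00125), from 8.87, 8.93 and 9.47 to 7.43, 8.18 and 7.35, a call kept in every alternative. Gstm1 fell 2.5-fold (adjusted p = 0.0135), from 12.03, 11.97 and 12.99 to 10.45, 11.60 and 10.96, and Gstm4 fell by 0.79 (adjusted p = 0.0273). The Gstm1 call was lost without EGFP replicate 3 or control hairpin replicate 1 (adjusted p = 0.0692 and 0.0697), and that of Gstm4 without EGFP replicate 3, where the fall was 0.47 (adjusted p = 0.103), control hairpin replicate 1 or 3 (0.0754 and 0.0737), or in a fit of only the 6 arrays compared (0.0661). Gstm3 was lower by 2.48 ± 0.77 (adjusted p = 0.0417), and by 3.46 with the replicate 2 arrays of the hairpin arm left out, since its second control hairpin array lay within the EGFP range of 11.46 to 13.41. Its call was lost without EGFP replicate 2 or 3 (adjusted p = 0.0900 and 0.163), without control hairpin replicate 1 or 3 (0.167 and 0.112), in the fit of 6 arrays (0.0675) and with trended and robust variances (0.0748). Gsta3 was lower by 0.98 ± 0.30 (adjusted p = 0.0369), and did not pass with EGFP replicate 2 or 3 (0.0985 and 0.14001) or control hairpin replicate 1 or 3 (0.158 and 0.0790) left out, nor in the fit of 6 arrays (0.0580), with trended and robust variances (0.0557) or with median centring (0.0542). The second probe set of Gsta3 differed by -1.26, without overlap (adjusted p = 0.0224, limma over all probe sets). In the same fit the other Gstm1 probe sets differed by -1.04, -1.30 and -1.33 (adjusted p = 0.0131, 0.0152 and 0.0188). The second of Gstm3 differed by -2.37 (adjusted p = 0.0585). The second probe set of Gstm7 differed by -0.63 (adjusted p = 0.00470 over all probe sets), whereas the one that stood for the gene differed by -0.21 (adjusted p = 0.335).

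Of the sulfotransferases, Sult1b1, which acts on thyroid hormones, fell 2.22-fold (adjusted p = 0.00659), from 6.89, 6.80 and 7.38 to 5.81, 6.19 and 5.63. Sult2a8 fell 3.06-fold (adjusted p = 0.0279), from 7.98, 7.89 and 7.59 to 6.14, 5.57 and 6.91, and missed the threshold with EGFP replicate 1, 2 or 3 or control hairpin replicate 1 or 2 left out (adjusted p between 0.0605 and 0.109). Sult5a1 fell by 0.39 (adjusted p = 0.0135), but not past the threshold with EGFP replicate 3 or control hairpin replicate 1 left out (0.0695 and 0.0573) or in the fit of 6 arrays (0.0536). None of these 3 overlapped between the groups. The 2 enzymes that rose were Sult4a1, by 0.49 from a signal near 5 (adjusted p = 0.0336), and Mgst3, by 0.73 (adjusted p = 0.0392); the second probe set of Mgst3 differed by -0.23 (adjusted p = 0.281), and the mean over probe sets by 0.25 (adjusted p = 0.265). Mgst3 did not pass with EGFP replicate 1, 2 or 3 or control hairpin replicate 1 or 2 left out (adjusted p between 0.0528 and 0.136) or after quantile normalisation (0.0712). Sult4a1 did not pass with EGFP replicate 1 or 2 or control hairpin replicate 1 or 3 left out (between 0.0603 and 0.145) or in the fit of 6 arrays (0.0635). Without replicate 1 of the control hairpin 7 of the 43 enzymes passed (16.3%, beside 8.16% of all genes) in place of 17, and without replicate 3 of EGFP 8 did (18.6%, beside 8.28%).

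Beside these changes the summed macrophage markers lay between 11.1 and 11.7 in the control hairpin arrays and between 11.7 and 11.9 in the EGFP arrays, between 12.1 and 12.2 with wild-type IRE1a and between 11.9 and 12.1 with S724A IRE1a. The sum is nearly that of Cd68 alone, whose group means lay between 11.3 and 12.1. The median difference of the 7 macrophage markers was -0.19 across the arms, -0.06 with wild-type and -0.18 with S724A IRE1a, and none passed in those comparisons without a block. Of 8 hepatocyte markers, Apoc3 and Asgr1 fell with the control hairpin, by 0.35 and 0.85 (adjusted p = 0.0475 and 0.00282, limma). In the same comparison the endothelial marker Cdh5 rose by 0.64 (adjusted p = 0.0241) and the stellate marker Acta2 fell by 0.45 (adjusted p = 0.0328). In the blocked fit Cd68 and Fgb rose with wild-type IRE1a, by 0.41 and 0.98 (adjusted p = 0.0124 and 0.0246), and Krt19 fell by 0.51 with wild-type and 0.48 with S724A IRE1a (adjusted p = 0.00177 and 0.00362); Col1a2 and Nkg7 fell with S724A IRE1a, by 0.41 and 0.47 (adjusted p = 0.0443 and 0.0441). The part of these shifts in the enzymes' values was not tested.

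The UGT1A enzymes could be read only through probe sets annotated to several Ugt1a symbols, which lie outside the 46 genes. Their common exons are shared by all UGT1A transcripts. The 3 such probe sets differed between the control hairpin group and EGFP by -0.86 ± 0.15, -0.82 ± 0.14 and -0.94 ± 0.19, with adjusted p = 0.00442, 0.00442 and 0.0115 (limma, adjusted over the 784 probe sets with several symbols that were tested). The first read 10.75, 10.95 and 11.12 with EGFP and 9.82, 10.34 and 10.09 with the control hairpin. Within the arms none of the 3 passed, the smallest adjusted p being 0.331. A probe set shared by Gsta1, Gsta2 and Gm3776 differed by -0.95 ± 0.31 across the arms (adjusted p = 0.0727).

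Genes around the conjugation reactions were read from lists that were chosen with earlier results of these data known. Of 14 genes that supply cofactors, Papss1, a PAPS synthase that makes the sulfate donor, rose with wild-type IRE1a by 0.53 (adjusted p = 0.00808) and with S724A IRE1a by 0.69 (adjusted p = 0.00151), from 9.68, 9.36 and 9.32 with EGFP to 9.83, 10.05 and 10.09 and to 10.07, 10.26 and 10.11. A fit of only the 6 arrays compared gave the wild-type value an adjusted p of 0.0586. Its relative Papss2 rose with S724A IRE1a by 0.77 (adjusted p = 0.0238; 0.128, 0.0571 and 0.107 without EGFP replicate 2, EGFP replicate 3 or S724A replicate 3; 0.48 as the mean of its probe sets) and differed by 0.62 with wild-type IRE1a (adjusted p = 0.0567). The other 13 of the 14 with wild-type and 12 with S724A IRE1a had no call, and list medians were 0.12 in both comparisons. With the block, Papss2, Cbs, Cth and Slc35d1 also rose with wild-type IRE1a, which made 5 of the 14, beside 10.6% of all genes.

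Of 12 transporters of conjugates, Abcc4, an efflux pump of the basolateral membrane, fell with both forms, by 1.33 with wild-type (adjusted p = 0.00309) and by 1.02 with S724A IRE1a (adjusted p = 0.0211; 0.0845, 0.0741 and 0.0931 without EGFP replicate 3 or S724A replicate 1 or 2). It read 6.02, 5.69 and 6.65 with EGFP, 4.70, 4.44 and 5.23 with wild-type and 4.96, 4.89 and 5.44 with S724A IRE1a, beside array medians between 5.69 and 5.83. Abcb1b, Abcc1 and Abcc3 also fell with wild-type IRE1a in the blocked fit, by 0.59, 0.64 and 0.46 (adjusted p = 0.00588, 0.00857 and 0.0338). With Abcc4 that made 4 of the 12 transporters, beside 4.99% of all genes that fell in that fit. Of 12 further detoxification enzymes linked to NRF2, Txnrd1, the cytosolic thioredoxin reductase, fell by 0.89 and 0.83 (adjusted p = 0.000241 and 0.000515), and Aldh3a2 rose by 0.70 with wild-type IRE1a (adjusted p = 0.0107; 0.0635 and 0.0502 without EGFP replicate 2 or wild-type replicate 3). Aldh3a2 also rose with S724A IRE1a in the blocked fit, by 0.51 (adjusted p = 0.0117), and Srxn1 fell with wild-type IRE1a, by 0.57 (adjusted p = 0.00781).

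Among 8 deconjugating enzymes, Arsb, a lysosomal arylsulfatase, fell by 1.02 with wild-type and 0.60 with S724A IRE1a (adjusted p = 0.000257 and 0.0170), or by 0.57 and 0.35 as the mean of its probe sets; the S724A call was lost without EGFP replicate 1 or S724A replicate 1 or 2 (adjusted p = 0.0594, 0.0633 and 0.0867). Among 14 other conjugation enzymes, Slc27a5, the bile acid CoA ligase, fell by 1.19 (adjusted p = 0.00929) and Acsm3, a medium-chain acyl-CoA synthetase, rose by 0.63 (adjusted p = 0.0293; between 0.0549 and 0.109 without any 1 of the 6 arrays) with wild-type IRE1a, and with S724A IRE1a none passed without the block. In the blocked fit 5 of the 14 passed with each form, beside 15.6% of all genes with wild-type and 14.4% with S724A IRE1a. Baat, Hnmt and Inmt also rose with wild-type IRE1a. With S724A IRE1a Gnmt, Hnmt and Inmt rose and Nat8 and Slc27a5 fell, the last by 0.67 (adjusted p = 0.00635, blocked limma fit). Ggt5, of the deconjugating enzymes, fell with S724A IRE1a in that fit. Of 16 regulators, Hnf4a and Ahr rose with wild-type IRE1a by 0.74 and 0.81 (adjusted p = 0.0237 and 0.0463); the Hnf4a call was lost without EGFP replicate 2 or wild-type replicate 2 or 3 (0.126, 0.0575 and 0.106). The Ahr call was lost without EGFP replicate 1 or 2 or any 1 of the wild-type arrays (between 0.05003 and 0.209), in the fit of 6 arrays (0.0519), under quantile normalisation and median centring (0.0529 and 0.0531), and as the mean of its probe sets, which differed by 0.48 (0.0840). Both also rose with S724A IRE1a in the blocked fit, Hnf4a by 0.53 and Ahr by 0.49 (adjusted p = 0.0113 and 0.0146). In the hairpin comparison none of the genes of these 6 lists passed without the block, beside 0.233% of all genes. With the block 1 rose, Cbr3, beside 0.534% of all genes. Across the arms 6 of the 14 other conjugation enzymes passed (42.9%, beside 16.1% of all genes), 5 of them lower (35.7%, beside 6.74%), with a list median of -0.46 beside -0.05 over all genes. In that comparison 1 cofactor gene rose and 2 fell (21.4% of 14, median 0.04), and 4 regulators rose and 2 fell (37.5% of 16, median 0.06). Of 12 NRF2-linked enzymes 1 rose and 1 fell (16.7%, median -0.20). Of 12 transporters 2 fell (16.7%, median 0.05), and of 8 deconjugating enzymes 0 passed (median 0.19).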

How the data were processed

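Messenger RNA was measured on 15 arrays, 1 per sample. The deposited table holds log2 signals, 1 for a probe set and array, which the authors made with GCRMA (no version given), per the submitters' processing notes; the log2 scale was read from the values. GCRMA estimates background from probe sequence, so signals near the low end carry little information, and precision is limited by how many arrays there are. Array medians lay between 5.69 and 5.83. After 64 control probe sets, 34945 of 45101 probe sets had 1 symbol in the platform annotation, 932 several and 9160 none; all 46 enzymes matched the RefSeq gene table.

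The means of 5 groups were fitted to all 15 arrays in R 4.3.3 with limma 3.58.1 (lmFit, eBayes, 10 residual degrees of freedom), two-sided, with adjustment over 16294 genes. The fit without a block was tested on simulated data with independent noise in each array. These do not copy the shared deviations of same-number arrays, so they do not show how the fit behaves with them. The median half-width of a 95% interval was 0.30. Residuals of same-number arrays correlated in 12 of 12 pairs within an arm (0.204 to 0.686) and in 4 of 18 pairs across arms above 0.1, so the numbers, from the sample titles, were taken as pairs within an arm only. The enzymes and gene lists were chosen with earlier results of these data known. Every enzyme could be named. By rule, arrays and tests are given for enzymes that passed within an arm, and for at most 4 genes per list and comparison that passed there. Given besides were enzymes that passed only across the arms, list genes that passed only in the blocked fit, and some enzymes without a call.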

Additional observations from a re-analysis of the deposited data

How the results depend on the processing

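No change of a named gene that passed in the main fit or in an alternative changed direction between them. Changes of sign without a call in either fit were not counted as reversals. Of the alternatives for single genes, 2409 kept their call or its absence, 38 gained one and 89 lost one. With the replicate block, which pairs same-number arrays within an arm, the counts rose from 1 to 6 enzymes and from 1250 to 2539 genes for wild-type IRE1a, from 0 to 4 enzymes and from 997 to 2347 genes for S724A IRE1a, from 0 to 2 genes for wild-type against S724A IRE1a, and from 0 to 4 enzymes and from 38 to 200 genes for the IRE1a hairpin; across the arms a replicate block over all arrays gave 22 enzymes in place of 17 and 3365 genes in place of 2620. A fit of only the 6 arrays compared gave 4 enzymes (9.3%, beside 963 genes or 5.91%) for wild-type, 2 (4.65%, beside 1163 genes or 7.14%) for S724A IRE1a and 5 genes for the hairpin. Trended and robust variances gave 2 genes for wild-type against S724A IRE1a, and median centring gave 23 genes for the hairpin. Without both replicate 2 arrays of the hairpin arm, chosen after seeing the data, 1 enzyme and 9 genes passed for the hairpin. Leaving out 1 array at a time gave 0 to 2 enzymes and 715 to 1108 genes for wild-type, 0 enzymes and 485 to 979 genes for S724A IRE1a, 0 to 1 enzymes and 13 to 75 genes for the hairpin, and 7 to 17 enzymes and 1330 to 2756 genes across the arms. The cause of these moves was not tested. The share of called genes that rose was 66.2% for wild-type, 63.3% for S724A IRE1a, 21.1% for the hairpin and 58.1% across the arms, and 55.3%, 48.3%, 34.6% and 45.1% after quantile normalisation. Signals near 4 limit what can be read of Gsto2, Gstt4, Ugt2b37 and the dim sulfotransferases.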
